A study of Mus musculus with 8 samples.

Results

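The genes described here encode the nuclear subunits of mitochondrial oxidative phosphorylation, the 4 respiratory chain complexes and the ATP synthase, with cytochrome c. They were chosen by gene symbol from an array study of mouse bone marrow-derived macrophages treated with the iron hormone hepcidin. The symbol rule matched 89 genes. Leaving out 2 pseudogenes and 8 assembly factors left 79 of the 24011 named genes of the table. Of these, 34 belonged to complex I, 4 to complex II, 8 to complex III, 19 to complex IV and 13 to complex V, and 1 was cytochrome c. The rule uses gene symbols and no measured value, but it was chosen with earlier results of these data known.

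The respiratory chain passes electrons from NADH (complex I) and succinate (complex II) through ubiquinone to complex III, then by cytochrome c to complex IV, which reduces oxygen. Complexes I, III and IV pump protons across the inner mitochondrial membrane, and complex V, the ATP synthase, uses the proton gradient to make ATP. Complexes I to IV and cytochrome c hold iron, in iron-sulphur clusters or haem groups. Inflammatory stimulation of macrophages is known for moving their metabolism from this pathway towards glycolysis. Most subunits are encoded in the nucleus and some in mitochondrial DNA, and of 13 mitochondrially encoded subunits 0 were in the table, so these were not analysed here. Ndufs5, Ndufb4, Uqcrb, Cox7c, Atp5g1, Atp5g2, Atp5j2 and Atp5l were not analysed here either.

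The cells came from the marrow of wild-type mice, 8 to 10 weeks old, and were grown for 7 days with medium conditioned by L cells, which supplies M-CSF. Hepcidin was added at 10 µg/ml for 1 h in 4 samples, and 4 control samples are labelled PBS. Total RNA of each was hybridised to 1 Affymetrix array, which gave log2 values for each gene. The labels number the samples of each treatment from 1 to 4 and do not say whether a number stands for an animal, a culture or a day, so a p-value here reads the spread among the numbered samples, and that spread may be technical. Of the macrophage markers, 7 were measured, with means of 8.34 to 13.13 over the 8 arrays (log2 value). As a gauge of background, 17 markers of lymphocytes (B, T and NK cells) and of muscle lay between 3.09 and 5.36, with a median of 3.82.

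Most subunit genes were measured above that background. The 8-array means of the 79 genes ran from 2.50 to 12.59, and 66 of them lay above the highest of the 17 background markers. Complex II was above it throughout, at 9.32 to 10.31, and so was complex III, at 6.74 to 10.19. The medians over genes were 8.51 for complex I, 9.80 for complex II, 7.91 for complex III, 6.0 for complex IV and 9.03 for complex V. Each probe set has its own response, so these levels do not order the genes or complexes by mRNA amount.

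The other 13 genes lay no higher than the highest background marker, and they are of 2 kinds. Tissue-restricted forms of complex IV subunits made up 7 of them. These were Cox4i2 at 4.74, Cox6b2 at 4.07, Cox7a1 at 5.25, Cox7b2 at 2.50, Cox8b at 3.54, Cox8c at 3.65 and Ndufa4l2 at 3.67. Their widely expressed counterparts, measured on other probe sets, were Cox4i1 at 9.31, Cox6b1 at 8.78, Cox7a2 at 7.38, Cox8a at 10.20 and Ndufa4 at 10.16, while Cox7b stood at 3.95. The other 6 are subunits or carriers that respiring cells use generally. They were Cox7b itself, Cox5b at 4.13, Ndufa11 at 4.86, Ndufb3 at 3.0, Atp5h at 3.97 and Cycs, the gene of cytochrome c, at 4.12. For these 6, a value at background does not show whether the gene was expressed, and log2 differences of genes near background are compressed.

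The comparison of hepcidin with PBS asks whether mRNAs of the respiratory chain respond within 1 h. None of the 79 subunit genes passed an adjusted p of 0.05 in limma with Benjamini-Hochberg adjustment, and the background over all genes was 0%. Changes were small in every complex. They ran from -0.19 for Cycs to 0.24 for Cox7a2l (log2, hepcidin minus PBS), with a median of 0.04 beside 0.00 over all genes. For scale, the cytokine gene Tnf differed by 1.28 ± 0.14 (log2 ± SE) in the same fit, with an adjusted p of 0.0762, Nfkbia by 0.94 ± 0.13 and Cxcl2 by 2.25 ± 0.62. At an unadjusted p under 0.05 there was 1 subunit gene of 79, beside 2.86% of all genes. With the replicate number as a block it was again 1, beside 4.91%. Each SE of a change comes from the fit without this block unless the block is named.

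**Figure D1:**
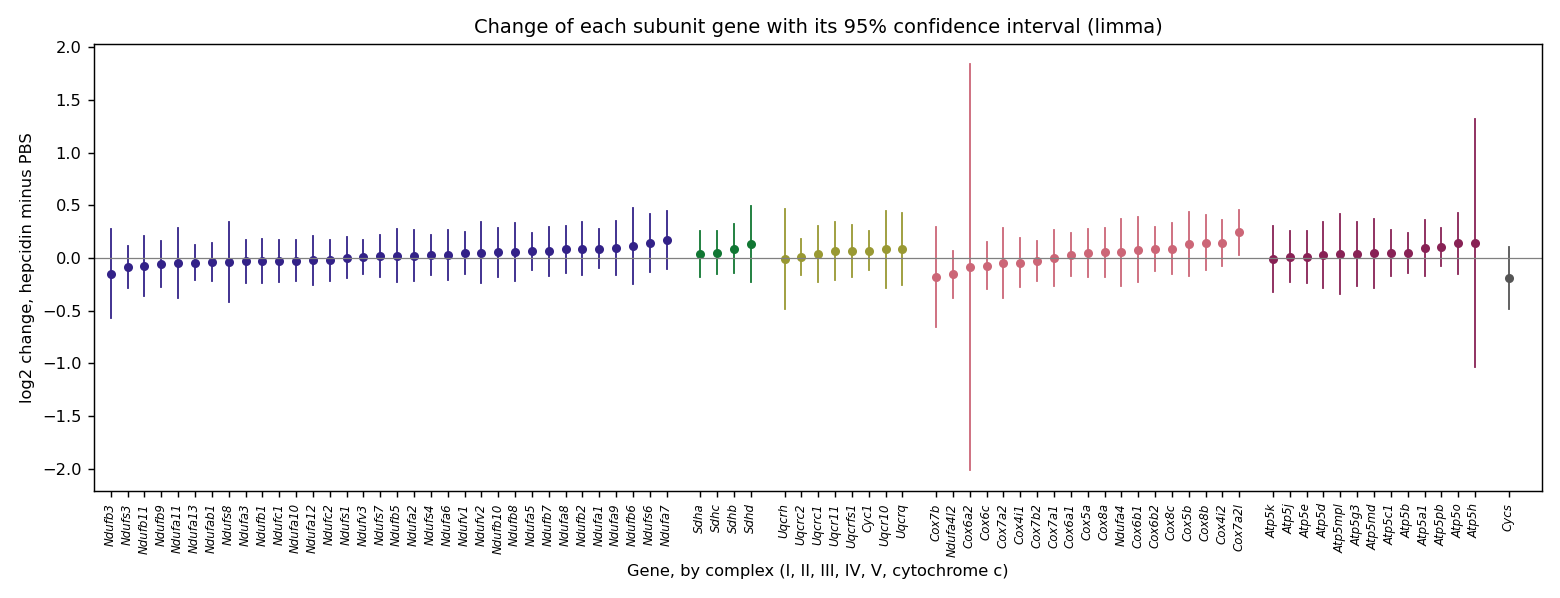
Log2 change (hepcidin minus PBS) of each of the 79 subunit genes, grouped by complex and ordered by size within it. Points are differences of group means (n = 4 arrays each) and bars their 95% confidence intervals from limma without the replicate block. The intervals therefore include the spread among replicate numbers. The points lie between -0.19 and 0.24, and the widest intervals belong to Cox6a2 and Atp5h.

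Complex II, the link between the citric acid cycle and the chain, gave 4 changes above 0. Sdha, the flavoprotein that oxidises succinate, stood at 10.03, 10.38, 10.41 and 10.35 on PBS arrays 1 to 4 and at 10.24, 10.35, 10.37 and 10.37 on the hepcidin arrays (log2 values). Array 1 of each treatment was its lowest, and the groups overlapped. The changes (log2 ± SE) were 0.04 ± 0.10 for Sdha, 0.09 ± 0.10 for Sdhb, the iron-sulphur subunit, 0.05 ± 0.09 for Sdhc and 0.13 ± 0.16 for Sdhd, the membrane anchors. Each was smaller than its own SE. With the replicate block the SE was 0.09 for Sdhd and 0.08 for Sdhb, smaller than their changes, and neither passed an unadjusted limma p of 0.05.

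Complex I gave 20 changes above 0 and 14 below, with a median of 0.02. The smallest unadjusted p belonged to Ndufa7, an accessory subunit, at 6.45 ± 0.23 with PBS and 6.62 ± 0.14 with hepcidin (mean ± SD, n = 4 each). Its change was 0.17 ± 0.12 (log2 ± SE), and in each of the 4 same-numbered pairs the hepcidin array was the higher one. With the replicate block its SE was 0.08 and its unadjusted limma p 0.0593. Ndufs6 differed by 0.14 ± 0.12, Ndufa1 by 0.09 ± 0.08, Ndufa9 by 0.10 ± 0.12 and Ndufa8 by 0.08 ± 0.10, and Ndufs3, a subunit of the peripheral arm, by -0.09 ± 0.09. Ndufs6 shows how the pairs disagreed, with differences of 0.32, 0.38, -0.00 and -0.13 in pairs 1 to 4.

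In complex III, 7 of 8 changes were above 0, with a median of 0.07. Cyc1, the cytochrome c1 haem protein, differed by 0.07 ± 0.08, the Rieske iron-sulphur protein Uqcrfs1 by 0.07 ± 0.11, Uqcrq by 0.08 ± 0.15 and Uqcr11 by 0.06 ± 0.12 (log2 ± SE). Uqcr11 stood at 6.69 to 6.89 with PBS. With hepcidin it was 6.48 on array 1 and 6.93 to 7.03 on the other 3, so the groups overlapped through that array. In complex V, 12 of 13 changes were above 0, with a median of 0.05. Atp5a1 and Atp5b, the alpha and beta subunits of the catalytic head, differed by 0.09 ± 0.12 and 0.05 ± 0.09, Atp5pb by 0.10 ± 0.08, Atp5o by 0.14 ± 0.13 and Atp5c1 by 0.05 ± 0.10.

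Complex IV held 12 changes above 0 and 7 below, and the largest single change. Cox7a2l, a COX7A-related protein that joins complexes III and IV in supercomplexes, stood at 6.43, 6.73, 6.69 and 6.53 on PBS arrays 1 to 4 and at 6.77, 6.79, 7.01 and 6.79 on hepcidin arrays 1 to 4. It was higher with hepcidin in 4 of 4 pairs, and the groups did not overlap. Non-overlap in either direction held for 1.88% of all genes and for this 1 subunit gene. The change was 0.24 ± 0.10 (log2 ± SE), 1.18-fold, with a 95% interval of 0.03 to 0.46. The limma p was 0.0300 before and 0.999976 after Benjamini-Hochberg adjustment, so Cox7a2l did not pass. Leaving out the hepcidin array numbered 3 gave 0.19 with an unadjusted limma p of 0.0913, and leaving out the PBS array numbered 1 or 4 gave 0.0784 or 0.0702. With the replicate block, which keeps the pairs, the limma p was 0.0145 before and 0.908 after adjustment. The unadjusted p with the block was 0.0461, 0.0106, 0.0624 and 0.0437 without numbers 1, 2, 3 and 4 in turn.

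The other members of complex IV with the smallest unadjusted p were at background level. Ndufa4l2 differed by -0.16 ± 0.10, Cox4i2 by 0.14 ± 0.10, Cox8b by 0.14 ± 0.12, Cox5b by 0.13 ± 0.14 and Cox6b2 by 0.09 ± 0.09 (log2 ± SE). The widely expressed forms gave 0.03 ± 0.09 for Cox6a1, 0.05 ± 0.11 for Cox8a, 0.05 ± 0.14 for Ndufa4, 0.08 ± 0.14 for Cox6b1, -0.04 ± 0.11 for Cox4i1 and -0.05 ± 0.15 for Cox7a2. Cycs, also at background, stood at 4.41, 4.32, 4.35 and 3.8 on PBS arrays 1 to 4 and at 3.97 to 4.13 with hepcidin. It was lower in pairs 1 to 3 and higher in pair 4, and its change was -0.19 ± 0.13.

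Over the whole pathway, 55 of 79 changes were above 0, which was so for 50.4% of all genes. This balance depended on which arrays were included. The median difference over the 79 genes was 0.09 and 0.06 in pairs 1 and 2 and -0.01 and -0.05 in pairs 3 and 4. Without the PBS array numbered 1, the median change was -0.03 and 26 of 79 were above 0. Without the hepcidin array numbered 1, it was 0.08 and 61 were above 0. Either setting leaves 1 low array without its pair. Without both arrays numbered 1, the median was 0.00 and 42 were above 0, and without both numbered 2 it was 0.02 and 50 were. Differences in all 4 pairs were rare in either direction. Ndufa7, Uqcrq and Cox7a2l were higher in 4 of 4 pairs, with a background of 5.69%, and Cox6a2 was lower in 4 of 4, with a background of 5.95%.

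Genes that serve the chain were read from 3 further lists. Of the assembly factors, proteins that build the complexes without being part of them, 46 were measured and 0 passed the adjusted threshold in limma. Their median change was 0.02, with 32 above 0, and 1 had an unadjusted limma p under 0.05, Sdhaf3 of complex II assembly at 0.26 ± 0.11 (log2 ± SE), which is 2.17% beside 2.86% of all genes. With the replicate block there were 4 (Sdhaf3, Ndufaf8 and Uqcc2 higher, Ndufaf2 lower), or 8.7% beside 4.91%, and 8 of 46 were higher in 4 of 4 pairs, or 17.4% beside 5.69%. The list's median difference was 0.14 in pair 1 and -0.01, -0.02 and 0.03 in pairs 2 to 4. Coa7, an assembly factor of complex IV, followed at 0.14 ± 0.07. Of the citric acid cycle enzymes 13 were measured and 0 passed, with a median of 0.02 and 10 above 0. Suclg1 and Sucla2, subunits of succinyl-CoA ligase, had the smallest p at 0.16 ± 0.09 and -0.08 ± 0.07. Of 15 regulators of mitochondrial biogenesis 0 passed, with a median of 0.07 and 12 above 0. Ppargc1b, a coactivator of mitochondrial genes, differed by 0.28 ± 0.10 with an unadjusted limma p of 0.0157 at a level of 4.81, within the background range, and Polrmt, the mitochondrial RNA polymerase, by 0.09 ± 0.09. Of the 15, 4 were higher in 4 of 4 pairs, or 26.7% beside 5.69% of all genes.

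More of the spread of these genes went with the replicate number, which takes 3 of the 7 degrees of freedom among 8 arrays, than with treatment, which takes 1. Number accounted for a median of 70.3% of a subunit gene's variance over the 8 arrays, beside 55.7% over all genes, and treatment for 3.82% beside 5.12%. In limma's moderated F-test of the 4 numbers, with treatment in the model and Benjamini-Hochberg adjustment over all genes, 3 subunit genes passed (Cox6a2, Uqcrh and Uqcrq), beside 5.6% of all genes. Those 3 are 3.8% of the 79. The count depended on the setting. Among genes with a mean of at least 6 it was 14 of 63 (22.2%, beside 31.2% of all such genes), among genes whose mean reached the median gene 11 of 67 (16.4%, beside 21.6%), and with trend and robust variance 12 of 79 (15.2%, beside 11.8%). At an unadjusted p under 0.05 there were 22 subunit genes, or 27.8%, beside 20.6%.

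Cox6a2, the form of the complex IV subunit VIa known from heart and skeletal muscle, set number 1 apart. It stood at 9.39, 6.25, 5.95 and 6.52 on PBS arrays 1 to 4 and at 9.24, 6.17, 5.92 and 6.42 on hepcidin arrays 1 to 4 (log2 values). Both arrays numbered 1 were far above the other 6, and within each pair hepcidin minus PBS was -0.15, -0.08, -0.03 and -0.10. The mean over number 1 exceeded that over the other 6 arrays by 3.11 on the log2 scale, 8.63-fold. The adjusted limma p among numbers was 8.38e-05, and no gene of the 24011 had a smaller one. By the range of its number means Cox6a2 ranked 3 of 24011. Without both arrays numbered 1 the adjusted p was 0.115.

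The counterpart Cox6a1 (Entrez gene 12861) did not share the pattern of Cox6a2 (12862), since it was 12.40 and 12.53 on number 1 and 12.49 to 12.72 on the other 6 arrays. Nor did the 6 muscle markers, whose mean level was 4.09 and 4.01 on number 1 and 3.97 to 4.14 on the other arrays. The other tissue-restricted forms stayed no higher than the highest background marker on number 1, with Cox7a1, the muscle form of subunit VIIa, at 4.94 and 5.11 and Cox8b, the muscle form of subunit VIII, at 3.73 and 3.66.

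Uqcrh and Uqcrq, small subunits of complex III, passed in opposite directions. Uqcrh (66576), the hinge protein beside cytochrome c1, was 9.39 and 9.34 on its 2 arrays numbered 1, and 10.00 to 10.14 elsewhere. Both arrays numbered 1 lay below all others, on average by a log2 difference of -0.72 (0.606-fold), with an adjusted limma p of 0.00922. Without the PBS array numbered 1 this was 0.0691, and without the hepcidin array numbered 1 it was 0.0686. Uqcrq (22272), the ubiquinone-binding subunit, stood at 8.27 and 8.43 on number 1, 7.97 to 8.06 on numbers 2 and 3, and 7.70 and 7.79 on number 4. Number 1 was above all others and number 4 below them, with an adjusted limma p of 0.0454. That call was lost whenever any 1 array was left out, with adjusted limma p of 0.0997 to 0.154, under median centring, with 0.0570, and with array weights, with 0.0734.

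**Figure D2:**
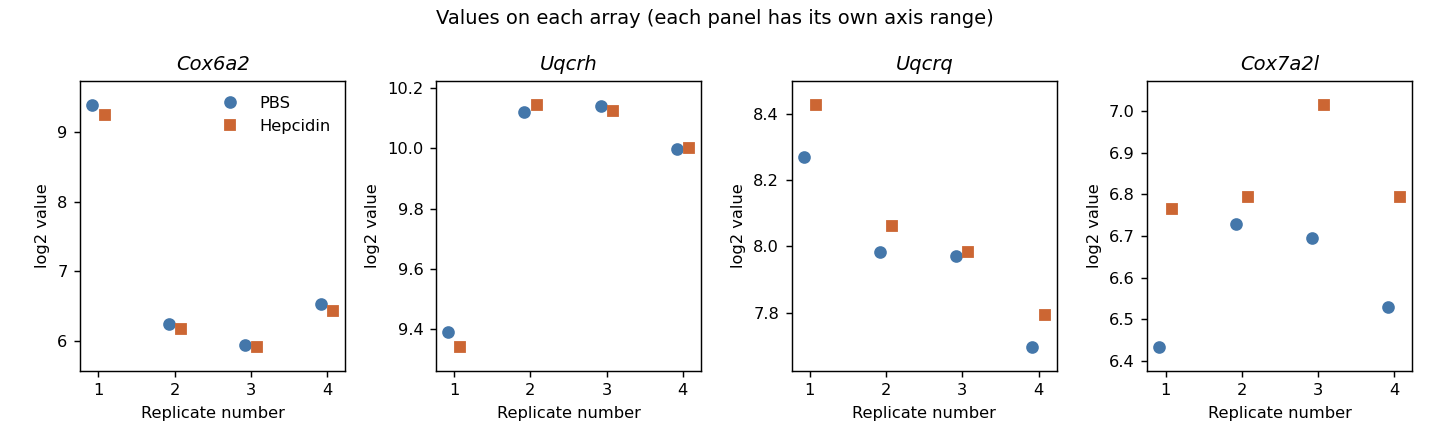
Log2 values of Cox6a2, Uqcrh, Uqcrq and Cox7a2l on the 8 arrays by replicate number, circles for PBS and squares for hepcidin (1 array each, axis range set per panel). Cox6a2 and Uqcrq are highest and Uqcrh lowest on number 1 in both treatments, and the 4 hepcidin values of Cox7a2l lie above its 4 PBS values.

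The promoter of Uqcrh is shown because it was the member with the largest difference on the low side of number 1. The 250 bases before its annotated start lie at chr4:116075071-116075320, minus strand, in GRCm38.p6 (sequence from RefSeq), and the capitals mark the letters CCGGAAGT of an ETS factor site, read on the opposite strand.
Uqcrh: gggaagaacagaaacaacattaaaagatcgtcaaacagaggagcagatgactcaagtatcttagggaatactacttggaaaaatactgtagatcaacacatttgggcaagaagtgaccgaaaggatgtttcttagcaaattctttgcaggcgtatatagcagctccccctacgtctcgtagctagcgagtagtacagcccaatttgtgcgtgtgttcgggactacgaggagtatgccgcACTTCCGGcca
The match ends a few bases before the annotated start.

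Beyond the 3 genes that passed, the subunit genes lay low on number 1 as a group. The mean over number 1 was the lowest of the 4 number means for 56 of 79 genes, or 70.9%, beside 28.5% of all genes. Both arrays numbered 1 lay below each of the other 6 for 32 genes, or 40.5%, beside 10.1% of all genes. This count was chosen after the values had been seen. Among genes with a mean of at least 6 it was 30 of 63 subunit genes, or 47.6%, beside 19.3%. Numbers 2, 3 and 4 were below all others for 2, 3 and 4 subunit genes (2.53%, 3.8% and 5.06%). The shares of all genes were 5.47%, 5.39% and 6.05%. The count was 34 after median centring, 29 after renewed quantile normalization and 28 after cyclic loess. The shares of all genes under these normalizations were not computed, so these counts do not show how far the subunit genes exceeded all genes there.

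The shift was in the same direction in each complex and modest. The median difference of number 1 from the other 6 arrays (log2) was -0.15 in complex I, -0.22 in complex II, -0.24 in complex III, -0.16 in complex IV and -0.27 in complex V. Over the 79 genes it was -0.19, beside -0.03 over genes with a mean of at least 6. Genes with both arrays numbered 1 below the rest numbered 11 of 34 in complex I, 3 of 4 in complex II, 3 of 8 in complex III, 7 of 19 in complex IV and 8 of 13 in complex V.

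**Figure D3:**
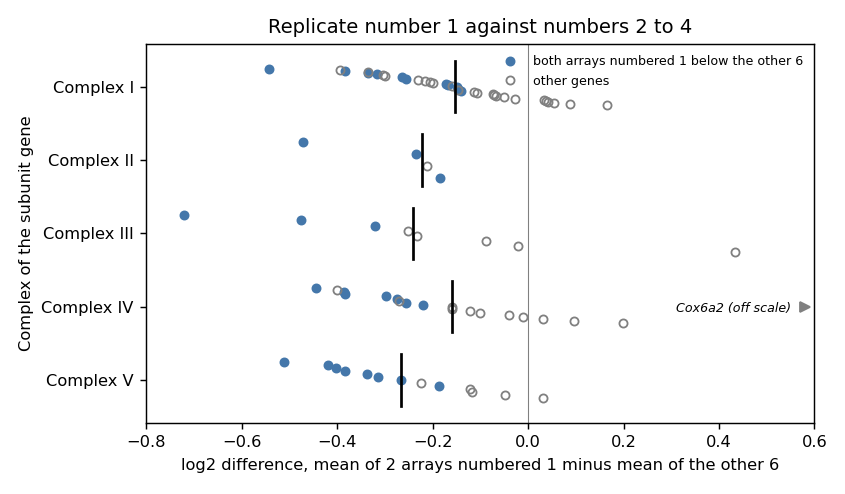
Log2 difference between the mean of the 2 arrays numbered 1 and the mean of the other 6, for each subunit gene by complex (cytochrome c not drawn). Filled points are genes for which both arrays numbered 1 lay below the other 6, bars are medians (-0.15 to -0.27), and Cox6a2, at 3.11, is marked by a triangle at the right edge.

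The catalytic head of ATP synthase gives the pattern array by array. Atp5a1 stood at 11.07 and 11.43 on PBS and hepcidin array 1 and at 11.53 to 11.63 on the other 6. Atp5b stood at 11.58 and 11.70 against 11.79 to 11.87. Atp5g3, a gene of the membrane ring subunit c, stood at 9.18 and 9.20 against 9.51 to 9.71, and Atp5mpl at 8.47 and 8.82 against 9.07 to 9.30. In each, number 1 was lowest, with the PBS array lower than the hepcidin array. Their adjusted limma p among numbers did not pass 0.05, and the smallest of the 13 in complex V was 0.0999639 (Atp5g3).

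In complex II, Sdhd stood at 8.77 and 9.18 on number 1 against 9.31 to 9.54. In complex I, Ndufv2, a subunit of the NADH-oxidising arm, stood at 8.62 and 8.79 against 8.99 to 9.18. Ndufs8, an iron-sulphur subunit of complex I, followed another order, with 9.76 and 9.80 on number 2, 9.51 and 9.37 on number 3, and 9.09 to 9.33 on numbers 1 and 4. Cox7a2, the widely expressed form of subunit VIIa in complex IV, stood at 6.97 and 7.14 on number 1 against 7.36 to 7.66. None of these 4 passed the adjusted threshold.

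**Figure D4:**
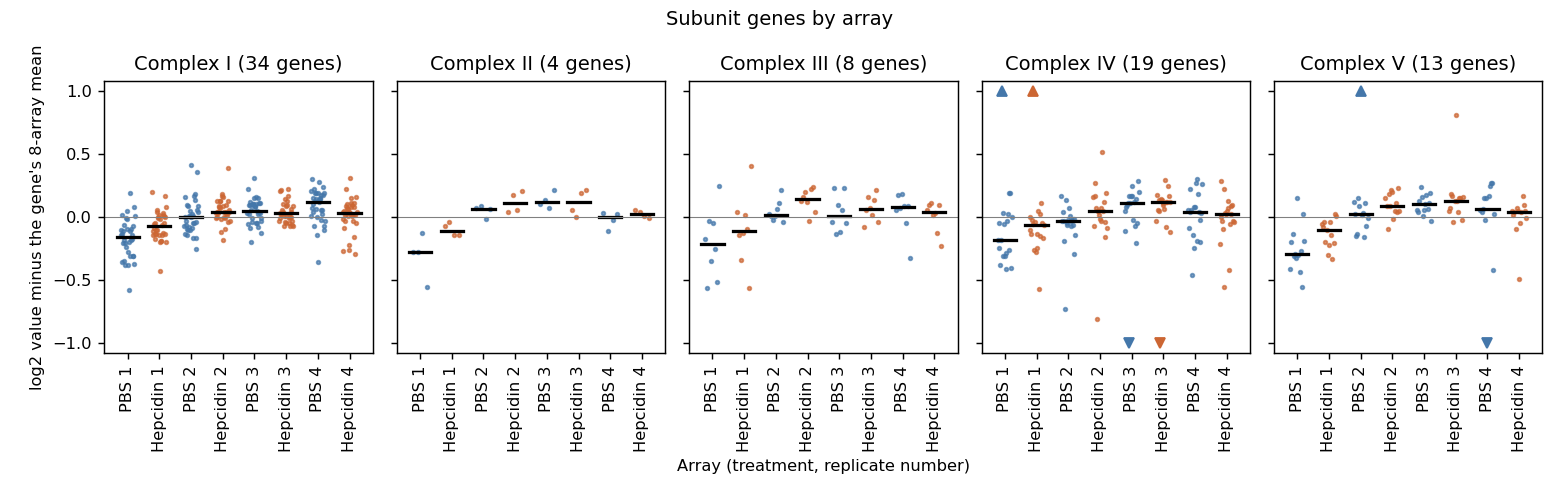
Log2 value of each subunit gene minus its own mean over 8 arrays, by array and complex (blue PBS, orange hepcidin). Bars are medians over genes. In all 5 complexes both arrays numbered 1 have the lowest medians, the PBS array lower than the hepcidin array; 6 points beyond 1 (Cox6a2 and Atp5h) are drawn as triangles at the edge.

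Some other measures also differed on number 1, and some only on its PBS array. The macrophage markers (7 genes) had a mean level of 10.76 and 10.93 on PBS and hepcidin array 1 and 11.26 to 11.41 on the other arrays, with 6 and 5 of the 7 below their own 8-array mean. The 9 markers of neutrophils and their precursors had 4.59 and 4.41 on number 1 against 5.57 to 6.17. In the limma F-test among numbers 8 of these 9 passed (88.9%), beside 5.6% of all genes. Ngp had the smallest adjusted limma p of them, 0.00014, with a mean of 4.58 on number 1 and 7.53 to 8.11 on the others. Of the 7 macrophage markers 2 passed (28.6%), Fcgr1 and Mertk, both with their lowest mean on number 1. The citric acid cycle genes had median deviations of -0.26 and -0.07 on PBS and hepcidin array 1. Those of the assembly factors were -0.11 and 0.02, and those of the biogenesis regulators -0.09 and 0.04, so these lists were low on the PBS array alone. The 75th percentile of all genes was 7.37 on PBS array 1 and 7.47 to 7.50 on the other 7, hepcidin array 1 among them. The mean level of the 6 endothelial markers was higher on number 1, at 5.57 and 5.70, than on the other arrays, at 5.38 to 5.45. The genes did not rise together, since number 1 had the highest number mean for 3 of the 6, and not for Cdh5, Pecam1 or Tek. Of the 6, Vwf passed the limma F-test among numbers (adjusted p 0.0331), with a mean of 7.75 on number 1 and 6.91 to 7.19 on the others. The part of these in the low subunit values was not tested, and in such bulk samples fewer cells of a type and less RNA per cell cannot be told apart.

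The promoters of the subunit genes were searched for letters of factor sites known from genes of the respiratory chain. RefSeq promoters (GRCm38.p6, 250 bases before to 50 after the annotated start) were given for 64 of the 79 genes. Both strands were searched for the letters GCATGCGC of an NRF1 site, CCGGAAGT of an ETS site (bound by GABP) and AAGATGGC of a YY1 site. NRF1 letters were present in 9 of 64 promoters, or 14.1%, beside 4.2% of the protein-coding genes of the table. YY1 letters were in 9, or 14.1%, beside 3.7%, and ETS letters in 5, or 7.81%, beside 5.96%. Any of these was in 22, or 34.4%, beside 12.9%. The GC box GGGGCGGG was in 25.0% beside 26.0%, and AAGGTCA, a site of oestrogen-related receptors, in 7.81% beside 4.59%. A match is a description of letters and no measure of binding. Among the genes below the rest on number 1, 8 of 27 held NRF1, ETS or YY1 letters, and among the others 14 of 37. Singly, the counts of 27 and of 37 were 2 and 7 for NRF1, 2 and 3 for ETS and 4 and 5 for YY1. For the GC box they were 5 and 11, and for AAGGTCA 4 and 1. The genes were split by values already seen, and no difference between the 2 sets was tested.

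The NRF1 letters read almost the same on both strands, so that GCGCATGCGC holds a match on each. The 30-base windows below show them in capitals in genes of different complexes, of which Atp5k encodes a small subunit of ATP synthase and Ndufa8 a complex I subunit.
Atp5k (chr5:108434431-108434460, - strand): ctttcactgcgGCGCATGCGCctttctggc
Cox6a1 (chr5:115349102-115349131, - strand): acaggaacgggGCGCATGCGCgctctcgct
Cycs (chr6:50566611-50566640, - strand): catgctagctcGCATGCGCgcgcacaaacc
Ndufa8 (chr2:36049328-36049357, - strand): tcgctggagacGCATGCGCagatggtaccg
Sdhb (chr4:140961206-140961235, + strand): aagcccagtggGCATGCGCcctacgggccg
Uqcr11 (chr10:80406807-80406836, - strand): atcgccttcacGCATGCGCtatacgtctgc
The first 2 hold the palindromic form and the other 4 a single match. Their hepcidin changes ran from -0.19 (Cycs) to 0.09 (Sdhb).

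YY1 letters stood in a narrow stretch and in 1 orientation in complex I. Of 31 complex I genes with a promoter, 7 held AAGATGGC, in each on the strand of the gene and 22 to 38 bases after the annotated start. In complex V the match began at -88 from the start in Atp5j, and at -3 on the opposite strand in Atp5pb. Positions were not computed for genes outside the pathway, so this placement is not shown to be particular to complex I. The windows (capitals mark the YY1 letters) show each complex I match in its surroundings.
Ndufa3 (chr7:3617384-3617413, + strand): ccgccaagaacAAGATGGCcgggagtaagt
Ndufa9 (chr6:126849097-126849126, - strand): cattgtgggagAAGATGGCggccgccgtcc
Ndufb8 (chr19:44555393-44555422, - strand): tgaaccgcggagaaggtgAAGATGGCtgcc
Ndufc1 (chr3:51408915-51408944, - strand): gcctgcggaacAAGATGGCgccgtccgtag
Ndufs4 (chr13:114388045-114388074, - strand): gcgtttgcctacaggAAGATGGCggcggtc
Ndufs6 (chr13:73328433-73328462, - strand): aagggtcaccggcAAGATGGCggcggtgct
Ndufs7 (chr10:80249462-80249491, + strand): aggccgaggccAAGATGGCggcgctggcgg
The letters hold an ATG triplet. Of these 7 genes, Ndufa3, Ndufb8, Ndufc1 and Ndufs4 were among those with both arrays numbered 1 below the other 6, and none passed in either test. Yy1 itself stood at 8.78 with a change of 0.01 ± 0.09 (log2 ± SE), Nrf1 at 6.98 with -0.00 ± 0.08 and Gabpa, the ETS factor, at 9.06 with 0.04 ± 0.09.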

How the data were processed

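The deposited log2 values come from the authors' RMA run (affy 1.36.1, per the submitters' processing notes) and were used unchanged. Probe set definition and genome build: not given in the sources used here. Of 24973 probe sets, 24015 had 1 symbol in the platform annotation, 0 had several and 958 had none. Gene numbers matched 23922 to RefSeq. The brightest probe set was kept for 4 symbols, which left 24011 genes and all 79 members. No dim gene was filtered out.

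Hepcidin was compared with PBS in limma 3.58.1 (R 4.3.3, lmFit and eBayes, no block), and the 4 replicate numbers by a moderated F-test beside treatment. P-values were adjusted by Benjamini-Hochberg over all genes, threshold 0.05. Both fits were tested on simulated data. Deviations from group means correlated at 0.344 to 0.548 between arrays of equal number and at -0.356 to 0.124 between others, all equal-numbered pairs above the bound of 0.1, so the numbers pair the arrays. The pairing comes from the titles and this check.

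Named members were, per complex, those with the smallest p in either test (6, 4, 4, 6 and 5 by treatment, 2 each by number), the complex IV isoforms and members past a threshold, 42 in all. Others are named for a count or for their place in a list. Members, lists and rules were chosen with earlier results of these data known, and the background markers after their levels had been seen. The number of arrays limits the precision. Plots used matplotlib 3.10.9, pandas 2.3.3 and Python 3.11.15.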

Additional observations from a re-analysis of the deposited data

Results flagged for a closer look

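Of 84 groups of 4 arrays examined (42 named genes in each treatment), 8 held an array whose gap to its neighbour exceeded Dixon's 95% critical value. Chance gives this in about 1 of 20 groups. On number 1, Cox6a2 stood at 9.39 with PBS (other arrays 5.95 to 6.52) and at 9.24 with hepcidin (5.92 to 6.42). Also on number 1, Atp5a1 stood at 11.07 with PBS (11.54 to 11.60), Atp5b at 11.58 with PBS (11.80 to 11.82), Sdha at 10.24 with hepcidin (10.35 to 10.37) and Uqcr11 at 6.48 with hepcidin (6.93 to 7.03). Away from number 1, Cox7a2l stood at 7.01 on hepcidin array 3 (6.77 to 6.79) and Cycs at 3.8 on PBS array 4 (4.32 to 4.41).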

How the results depend on the processing

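No subunit gene passed in hepcidin against PBS under any of 27 other settings. Of 1114 changes of named members, 1040 kept their direction and 74, over 25 members, changed sign without passing. Over all genes, limma called 3 with a mean of at least 6, 1 with the replicate block and 5 with the replicate block as a random term, 1 with the replicate block and without number 1 or without number 2, and 0 to 2 with arrays or numbers left out. The replicate block changed no other call. The block without each number and the count of genes low on number 1 were added after seeing the data.

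Among replicate numbers, 1345 genes and 3 subunit genes were called. With a mean of at least 6 these were 2894 of 9274 genes and 14 of 63 subunit genes, with only genes whose mean reached the median gene 2589 of 12006 and 11 of 67, and with trend and robust variance 2844 of 24011 and 12 of 79. With arrays or numbers left out they were 166 to 1019 and 0 to 2, the lowest without number 1, where Cox6a2, Uqcrh and Uqcrq all lost the call. The filters test fewer genes, but the unadjusted p of the limma F-test changed as well. For Uqcrh it was 0.000151 over all genes and 2.09e-05 among genes with a mean of at least 6. Why the counts differed was not tested for any setting. Subunit genes below all others on number 1 numbered 32 to 51 with arrays left out, 51 without the hepcidin array numbered 1. Leaving out an array can raise this count or leave it unchanged but cannot lower it, so this range is no check of the count. Values near background limit 13 genes.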

Other observations

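Atp5h, a subunit of the stalk of ATP synthase at background level, was read after its values had been seen. Its mean was 2.86 on number 4 and 3.93 to 4.68 on the other numbers, which ranked 64 of 24011 by the range of number means. Among the assembly factors, citric acid cycle enzymes and biogenesis regulators, 1 gene passed the limma F-test among replicate numbers. It was Ppargc1a, a coactivator of mitochondrial biogenesis, with a mean of 3.89 on number 1 and 2.91 to 3.22 on the others (adjusted limma p 0.0154), all below the highest background marker. It was also chosen after its values had been seen.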
